A study of Mus musculus with 4 samples.

Results

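The report is about 39 mouse genes of nucleolar ribosome biogenesis in T helper 2 (Th2) cells. They were chosen as a list of symbols, with no measured value in the rule, but with earlier results of these data known. Each of the 39 matched 1 row among 50600 gene rows. Primary Th2 cells of strain C57BL/6NJ were sequenced as bulk RNA in 4 libraries, biological replicates 1 to 4 of 1 group. The labels give no treatment or comparison group, 1 donor identifier for all libraries, no age and no sex. File headers name the 48 hour point of a time course of Th1 and Th2 cultures. Nothing in the labels says that the replicates came from separate animals, so p-values measure only the spread between these libraries. In bulk RNA, fewer cells of a type and less RNA per cell cannot be told apart.

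The libraries held 1785970 to 2271993 counts of read pairs. Of the T cell markers, 5 of 5 exceeded 3 counts in some library, with summed counts of 93 to 157. Of the Th2 markers 5 of 7 did, with summed counts of 226 to 399, and Il5 had 0 in all 4. Most of the Th2 sum was Ptgdr2 (249, 263, 216 and 147 counts), which, like Gata3, overlaps a row on the other strand. Ms4a1, Itgam, Adgre1, Ncr1, Klrb1c and Hba-a1, markers of B, myeloid, NK and erythroid cells, had 0 in all. The B cell marker Cd79a had 14, 8, 4 and 7 counts and the CD8 T cell marker Cd8b1 2, 4, 4 and 2, neither with an overlap, and their lists had 1 of 3 and 1 of 2 markers above 3 counts. The part of other cells in the members' levels was not tested. The myeloid list summed to 1067 to 1457 counts, nearly all in Csf1r, whose exons overlap a row on the other strand. The rows CT010467.1, annotated as ribosomal RNA, and Gm42418, which lies opposite it, together held 3.25% to 5.02% of counts in replicates 1 to 3 and 15.9% in replicate 4.

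Ribosomes are assembled in the nucleolus. RNA polymerase I transcribes the ribosomal RNA precursor, small nucleolar RNA-protein particles (snoRNPs) modify it, and assembly factors fold, cut and release the small and the large subunit. Activated T cells grow and divide fast, and ribosome production is known to rise with activation and with the transcription factor Myc.

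Levels below are those the deposited tables assign to each gene's row, as counts or as TPM (a transcript share, which scales counts by exon length and library). Counting used 1 strand only (strand setting 1), and the sources used here do not give the orientation of the libraries. Rows with an exon overlap on the other strand held 92.5% to 94.5% of all counts. Whether the setting matches the libraries was not tested. If it does not, the value of every row, member or opposite, is a reading of the other strand there and not the level of the named gene's own mRNA, so Bysl would be read from transcripts of the Ccnd3 side. An overlap means at least 1 exon base shared with a row on the other strand. It was found for 14 of 39 members (35.9%), against 22.1% of 21764 protein-coding rows. These 14 were Nop56, Nop14, Nhp2, Dkc1, Wdr12, Pes1, Bop1, Rrp9, Polr1a, Mybbp1a, Noc2l, Gnl3, Bysl and Tsr1. The other 25 had none: Ncl, Npm1, Fbl, Nop58, Nop2, Nop10, Gar1, Nolc1, Wdr43, Wdr75, Rrp1b, Rrp12, Utp20, Polr1b, Polr1c, Ubtf, Rrn3, Ddx21, Heatr1, Nat10, Nob1, Ebna1bp2, Mrto4, Surf6 and Nip7.

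The 39 rows together held 0.383%, 0.354%, 0.290% and 0.358% of all counts in replicates 1 to 4, or 0.346% ± 0.0397 (SD, n = 4). The Wilson 95% intervals were 0.376 to 0.392, 0.346 to 0.362, 0.283 to 0.297 and 0.349 to 0.367, so replicate 3 was lower by more than counting error. The total includes CT010467.1 and Gm42418, which held 15.9% of the counts of replicate 4. With these rows left out of the total, the share was 0.375% ± 0.0523 (SD, n = 4). At least 1 TPM in all 4 libraries was reached by 35 of 39 members (89.7%), against 21.8% of protein-coding rows. Wdr12, Polr1a, Wdr75 and Nob1 did not, each because of replicate 3 alone.

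A few rows carried most of these counts. Bysl alone held 34.96% ± 5.66 of the counts of all members, Ncl 19.1% ± 3.07 and Npm1 16.4% ± 2.48 (SD, n = 4). Members with an overlap held 47.9% ± 5.54 of the counts, and 19.9% ± 1.66 without Bysl. Over all protein-coding rows, those with an overlap held 88.3% ± 1.61. The share in rows without one was thus larger in the members, and Ncl and Npm1, which have no overlap, made up most of it. The members' share in rows with an overlap was 45.3%, 47.9%, 55.5% and 42.7% in replicates 1 to 4, highest in replicate 3.

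The median level of the 14 members with an overlap was 4.19 ± 0.29 on the log2(TPM + 1) scale, and that of the 25 without was 2.59 ± 0.23. The difference of medians was 1.60 ± 0.27 and positive in all 4 libraries (1.74, 1.82, 1.21 and 1.61). Over all protein-coding rows the medians were 1.20 with an overlap and 0 without, a difference of 1.20 ± 0.11 (SD, n = 4 for each). With an overlap of at least 50 bp the difference among members was 1.11. The median member stood above the median protein-coding row in both classes.

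**Figure D1:**
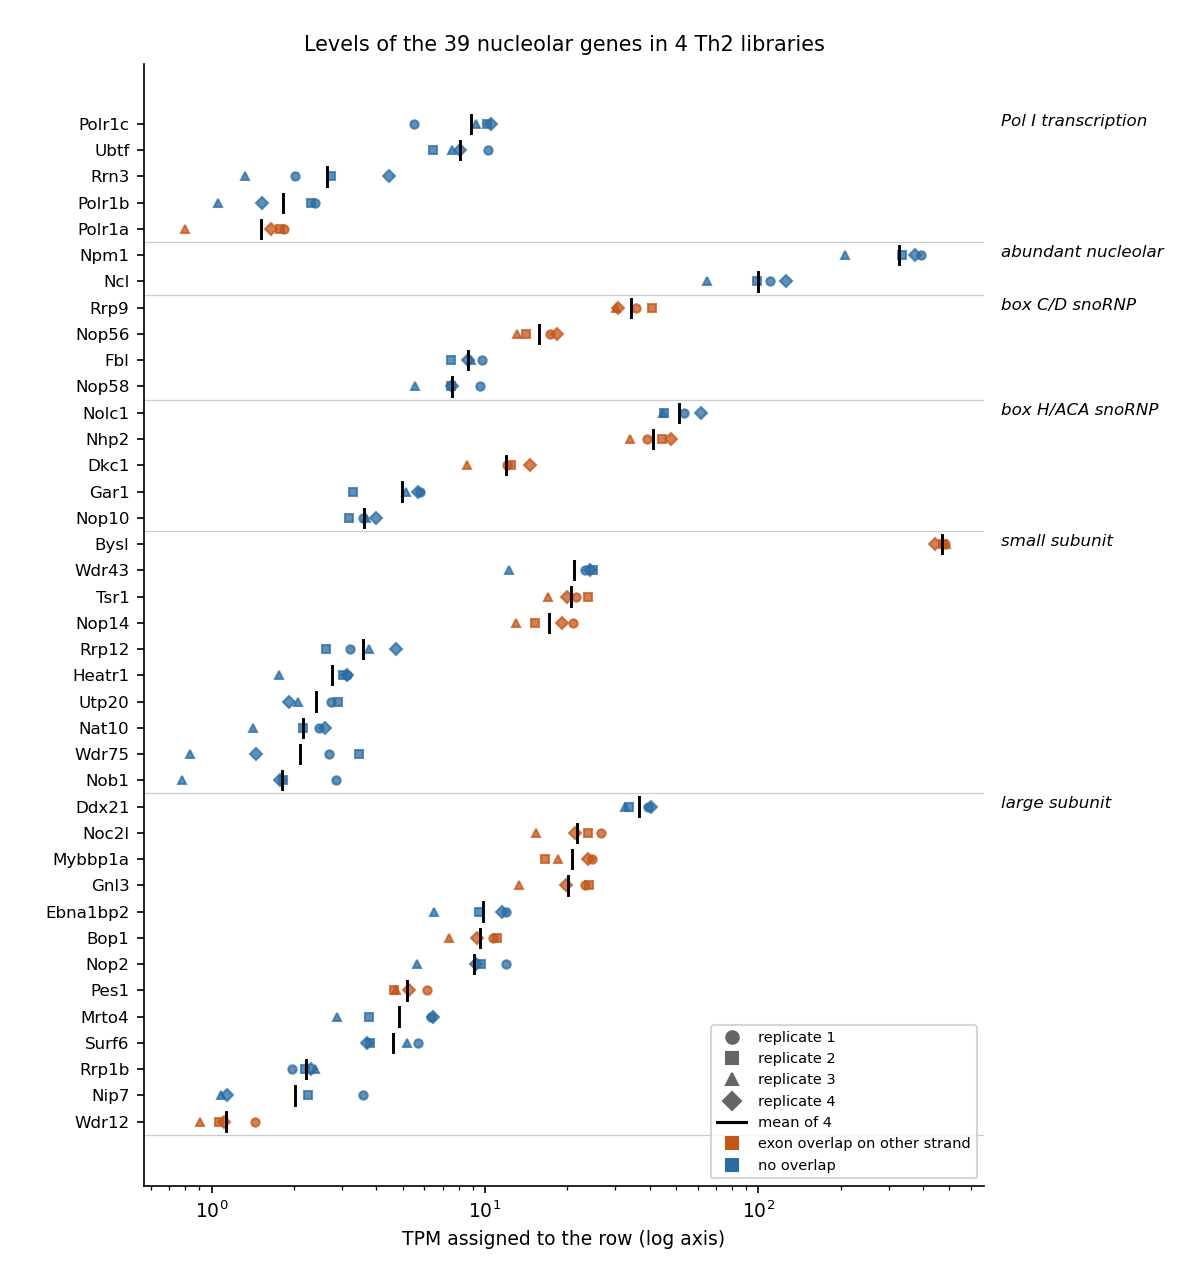
TPM of each of the 39 members (log axis), 1 symbol per library and a bar for the mean of 4, grouped by role and coloured by exon overlap with a row on the other strand. Bysl (470 TPM), Npm1 (327) and Ncl (100) stand apart from the other 36, which lie between 1.13 and 51.4 TPM.

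Of 5 genes of RNA polymerase I transcription, Polr1c and Ubtf stood near the members' median of 8.70 TPM and the other 3 below it. Polr1c, a subunit shared by RNA polymerases I and III, stood at 5.51, 10.2, 9.25 and 10.5 TPM in replicates 1 to 4, and Ubtf, which binds the ribosomal DNA promoter, at 10.3, 6.45, 7.57 and 8.13 TPM. These neighbours, 8.87 ± 2.30 and 8.11 ± 1.61 TPM on average (SD, n = 4), did not differ beyond their spread. Rrn3, which brings the polymerase to the promoter, averaged 2.63 ± 1.34 TPM. Polr1b, the second largest subunit, had 21, 19, 9 and 10 counts (1.82 ± 0.641 TPM), and Polr1a, the largest, 33, 30, 14 and 22 (1.52 ± 0.483 TPM). Polr1a, which has an overlap, and Polr1b were thus at the low end of the 39 genes, within each other's spread. The shared subunit gene Polr1c was not.

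The abundant nucleolar proteins gave the highest rows without an overlap. Npm1 (ENSMUSG00000057113.13, chr11:33152287-33163206, mm10, minus strand) encodes nucleophosmin, a chaperone of nucleolar assembly. It had 1586, 1264, 814 and 1125 counts, or 393, 334, 208 and 375 TPM (327 ± 83.6, SD, n = 4). Ncl (ENSMUSG00000026234.12, chr1:86344719-86359400, minus strand) encodes nucleolin, an RNA-binding protein of the nucleolus. It had 1697, 1432, 971 and 1450 counts, or 110, 98.96, 64.8 and 126 TPM (100.03 ± 26.1). Both were lowest in replicate 3. By mean TPM, Npm1 ranked 8 and Ncl 37 among 16963 protein-coding rows without an overlap. Among all protein-coding rows they ranked 135 and 415.

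Of the box C/D snoRNP genes, many of whose particles methylate ribosomal RNA, Rrp9 was highest. This protein of the U3 particle stood at 35.6, 40.8, 30.1 and 30.6 TPM (34.3 ± 5.01), and the core protein gene Nop56 at 17.2, 14.1, 13.1 and 18.4 TPM (15.7 ± 2.52). Both have an overlap, of 20 and 5 bp. The methyltransferase gene Fbl (fibrillarin) and the core protein gene Nop58 have none and stood at 8.70 ± 0.909 and 7.56 ± 1.64 TPM, within each other's spread (SD, n = 4).

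Box H/ACA particles turn uridines of ribosomal RNA into pseudouridine. Nolc1, a chaperone that carries snoRNPs, was the highest member of this role at 53.6, 45.1, 44.9 and 61.8 TPM (51.4 ± 8.06). Nhp2, a core protein, stood at 39.2, 44.2, 33.8 and 48.0 TPM (41.3 ± 6.17), and Dkc1, the pseudouridine synthase dyskerin, at 12.03, 12.5, 8.58 and 14.6 TPM (11.9 ± 2.51). Gar1 and Nop10 encode the other core proteins. They averaged 4.98 ± 1.16 and 3.61 ± 0.341 TPM (SD, n = 4), on only 8 to 15 and 5 to 6 counts per library. Rows of genes whose proteins act together in 1 particle thus ranged from 3.61 to 41.3 TPM, and the higher ones, Nhp2 and Dkc1, were those with an overlap.

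Of 10 small-subunit genes, 1 stood far above the rest. Bysl (ENSMUSG00000023988.8, chr17:47599331-47611492, minus strand) encodes bystin, a factor of late small-subunit maturation. It had 2798, 2589, 2750 and 1925 counts, or 480, 473, 485 and 443 TPM (470 ± 18.6, SD, n = 4), and ranked 85 among all protein-coding rows. Wdr43, of the early processing complex, followed at 23.2, 24.9, 12.2 and 24.2 TPM (21.1 ± 5.98), and the assembly factor genes Tsr1 and Nop14 averaged 20.6 ± 2.88 and 17.1 ± 3.69. The other 6 lay between 1.81 and 3.58 TPM and had no overlap. They were Rrp12, Heatr1, Utp20, Nat10 (an RNA acetyltransferase), Wdr75 and Nob1 (the nuclease that makes the last cut of small-subunit RNA), and neighbours in that order differed by less than the larger of their SDs. Wdr75 had 20, 24, 6 and 8 counts and Nob1 15, 9, 4 and 7, so both came close to the 3 counts that a value of 0 allows.

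Among 13 large-subunit genes, Ddx21, an RNA helicase, was highest at 39.4, 33.7, 32.6 and 40.5 TPM (36.5 ± 3.98). Noc2l, of the nucleolar complex that moves precursors on, had 26.5, 23.8, 15.4 and 21.4 TPM (21.8 ± 4.73), close to Mybbp1a at 20.9 ± 3.93 and the GTPase gene Gnl3 (nucleostemin) at 20.1 ± 4.82. These 3 were within each other's spread, and all have an overlap. Pes1, Bop1 and Wdr12 encode 1 complex of large-subunit assembly and averaged 5.19 ± 0.677, 9.62 ± 1.66 and 1.13 ± 0.222 TPM. Ebna1bp2, the methyltransferase gene Nop2, Mrto4, Surf6 and Rrp1b averaged 9.85 ± 2.46, 9.12 ± 2.60, 4.86 ± 1.81, 4.59 ± 0.988 and 2.21 ± 0.178 (SD, n = 4). Nip7 had 17, 10, 5 and 4 counts (2.01 ± 1.18 TPM).

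The 14 overlaps formed 14 pairs, 9 tail to tail, 3 head to head and 2 with the opposite row inside the member. The opposite row held more counts than the member in every library in 8 of 14 pairs and fewer in 4. Over 4844 such pairs of a protein-coding row the opposite row was higher throughout in 52.0% and lower in 30.7%, and the members' 8 of 14 (and 4 of 14) lay near those shares. Each pair was tested by an exact two-sided sign flip over 4 libraries. The smallest p that test can give is 1 in 8, so no pair could pass 0.05. All 12 pairs ordered alike in every library had that smallest p, which Benjamini-Hochberg adjustment over the 14 pairs made 0.146. Ratios below are log2 of the opposite row over the member, with 0.5 counts added to each.

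**Figure D2:**
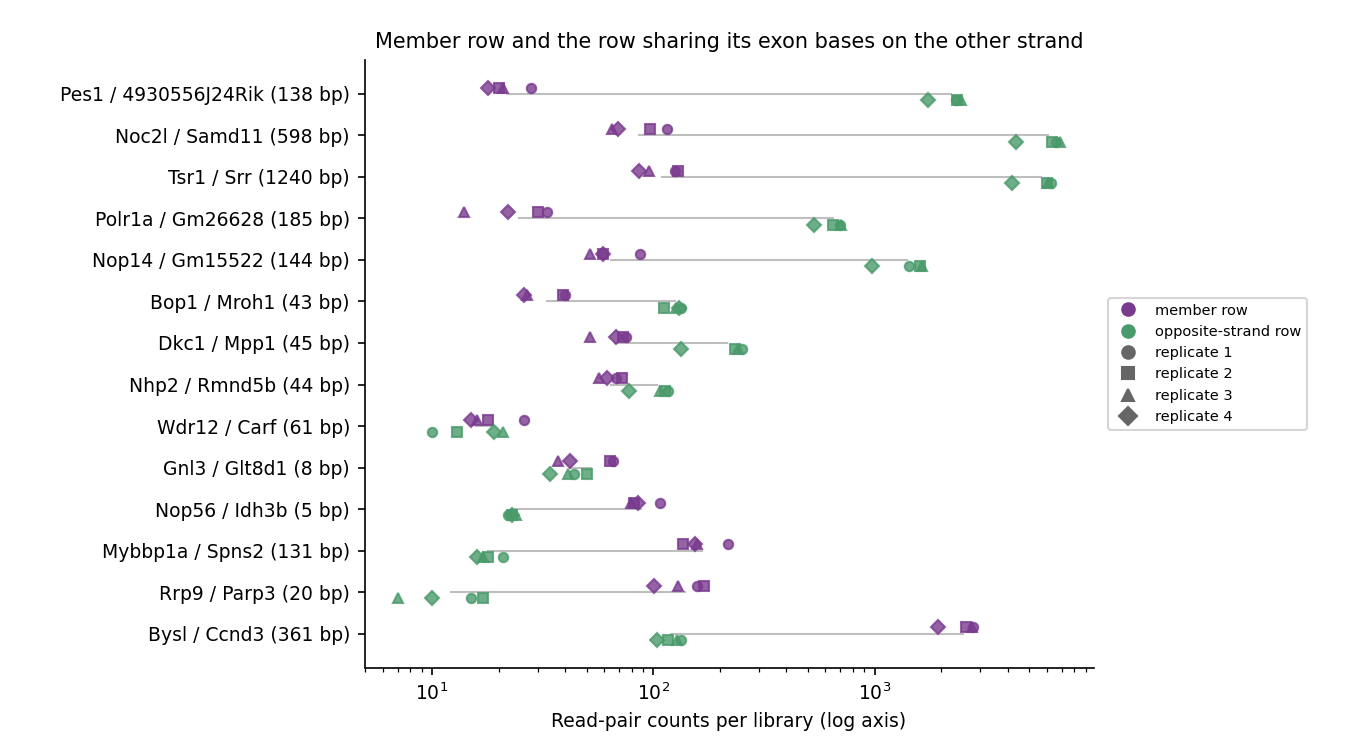
Counts per library (log axis) of each member row and, below it, of the row sharing its exon bases on the other strand, ordered by their ratio, with the shared bases in brackets. In the top 5 pairs the 2 rows lie more than 10-fold apart with the member lower, and in the bottom pair, Bysl and Ccnd3, the member is higher.

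In 5 pairs the opposite row was over 10-fold higher. Pes1 had 28, 20, 21 and 18 counts, and 4930556J24Rik opposite it 2327, 2354, 2456 and 1736 (6.65 ± 0.24). Noc2l had 115, 97, 65 and 69 counts, and Samd11, a protein-coding row that meets it tail to tail, 6593, 6364, 6911 and 4363 (6.14 ± 0.40). No library of these members came near its partner. Tsr1 had 125, 130, 96 and 86 counts, and the serine racemase gene Srr opposite it 6248, 6041, 6071 and 4157 (5.68 ± 0.20). Samd11 and Srr each overlap 1 further row on the member's strand. Polr1a had 33, 30, 14 and 22 counts, and the antisense row Gm26628 inside it 700, 652, 702 and 530 (4.74 ± 0.58). Nop14 had 87, 59, 52 and 59 counts, and the antisense row Gm15522 inside it 1424, 1597, 1641 and 973 (4.44 ± 0.49; SD, n = 4 for each). In all 5, replicate 4 had the lowest count of the opposite row, in the library with the lowest total.

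The opposite rows of Polr1a and Nop14 each lie wholly within the member and share exon bases with no other row on the member's strand. Their overlaps with rows on their own strand were not examined. The shared coding stretches are shown here 5′ to 3′ on the member's strand, read from GENCODE vM21 transcripts (GRCm38, the build of mm10), with the bases that both rows hold in capitals.
Nop14 coding exon, chr5:34652296-34652418, minus strand: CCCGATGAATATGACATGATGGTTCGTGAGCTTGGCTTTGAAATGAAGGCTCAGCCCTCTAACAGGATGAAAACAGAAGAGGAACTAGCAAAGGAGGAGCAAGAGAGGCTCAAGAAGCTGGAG
Polr1a coding exon, chr6:71963674-71963790, plus strand: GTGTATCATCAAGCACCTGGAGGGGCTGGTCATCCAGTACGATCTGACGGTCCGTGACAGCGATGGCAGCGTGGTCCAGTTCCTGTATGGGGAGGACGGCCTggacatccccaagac
Gm15522 shares 144 bp with Nop14, 123 of them in this exon, and its other 641 exon bases lie in introns of Nop14. Gm26628 shares 185 bp with Polr1a, 102 of them in this exon, and its other 1534 exon bases lie in introns of Polr1a. Most of the exon length of both antisense rows thus lies where the member row counts nothing.

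In 3 pairs the opposite row was higher by less. Bop1 had 40, 39, 27 and 26 counts, and Mroh1 133, 112, 127 and 131 (1.94 ± 0.39). Dkc1 had 75, 73, 52 and 68, and Mpp1 252, 235, 241 and 133 (1.65 ± 0.51). Nhp2 had 68, 72, 57 and 62, and Rmnd5b 117, 113, 107 and 78 (0.66 ± 0.25; SD, n = 4 for each). Per exon base the Bop1 and Nhp2 pairs turned round, to -0.80 and -0.25. These 3 pairs shared only 43 to 45 bp.

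In 2 pairs the rows were not ordered in every library. Wdr12 had 26, 18, 16 and 15 counts, and Carf 10, 13, 21 and 19 (-0.27 ± 0.81, exact p = 0.625). Without replicate 1 the sign of that ratio turned, to 0.086. Gnl3 had 66, 64, 37 and 42, and Glt8d1 44, 50, 41 and 34 (-0.27 ± 0.30, exact p = 0.25; SD, n = 4).

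In 4 pairs the member was higher in every library. Bysl (counts above) lies tail to tail with Ccnd3, which encodes cyclin D3, with 361 shared bases, and Ccnd3 had 134, 117, 128 and 104 counts (-4.37 ± 0.11). Rrp9 had 158, 170, 130 and 101, and Parp3 15, 17, 7 and 10 (-3.51 ± 0.41). The groups of values did not overlap in these pairs. Mybbp1a had 217, 137, 158 and 155, and the lipid transporter gene Spns2 21, 18, 17 and 16 (-3.16 ± 0.19). Nop56 had 107, 82, 79 and 85, and Idh3b, a subunit of mitochondrial isocitrate dehydrogenase, 22, 23, 24 and 23 (-1.91 ± 0.24; SD, n = 4 for each).

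Counts of the opposite row, more than those of the member row, were higher where more bases were shared. Across the 14 pairs, Spearman's rho of shared bases was 0.13 with the member's mean counts and 0.70 with the opposite row's, as a description, since all pairs come from the same 4 libraries. Of the 7 pairs sharing under 100 bp, members had 18.8 to 140 counts on average and opposite rows 12.3 to 215. Of the 7 sharing 100 bp or more, members had 21.8 to 2516 and opposite rows 18.0 to 6058. Mybbp1a and Bysl were the long overlaps in which the opposite row stayed low.

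**Figure D3:**
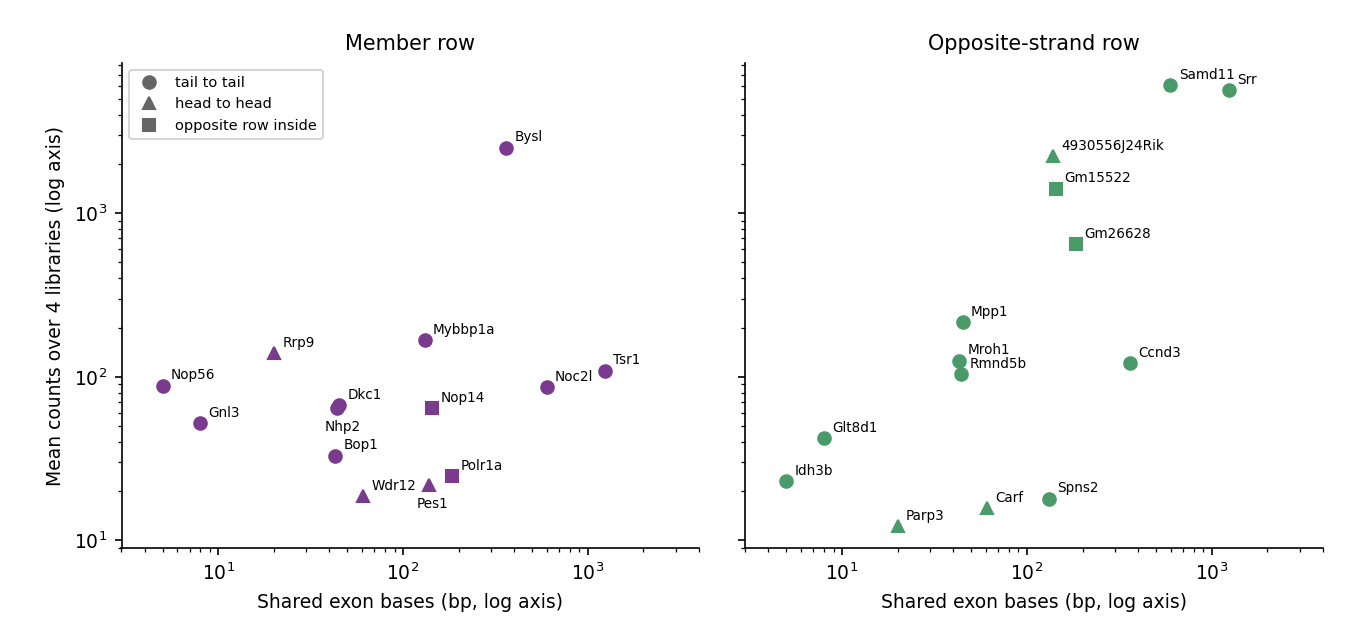
Mean counts over 4 libraries against exon bases shared, both on log axes, for the member rows (left) and their opposite-strand rows (right), with the arrangement of the pair as the symbol. Member rows other than Bysl stay between 18.8 and 167 counts, while opposite rows reach 6058.

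Variation between the libraries was tested for every row by the edgeR goodness of fit of 1 common mean, with Benjamini-Hochberg adjustment over 5064 rows. Of these, 23 (0.454%) were called at an adjusted p under 0.05. Of the 32 members tested 2 were called, Ncl (edgeR adjusted p = 7.72e-05) and Npm1 (edgeR adjusted p = 0.000369). As TMM-normalized CPM (a share of the library's counts, scaled for composition), Ncl had 727, 665, 455 and 899 in replicates 1 to 4, and Npm1 680, 587, 381 and 697. In both, replicate 3 was the lowest. Both calls were lost with no filter on low counts (edgeR adjusted p = 0.808 for each) and with a common dispersion (edgeR adjusted p = 0.051 and 0.068), and DESeq2 marked 0 members as dispersion outliers. Without replicate 3 no member was called (edgeR adjusted p = 0.98 for Ncl and 1.00 for Npm1), and without replicate 4 only Npm1 was. In a fit on rows without an overlap alone, chosen after seeing the data, neither was called (edgeR adjusted p = 0.996 for both).

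The low values of replicate 3 were shared by most members. Relative to each row's own mean, the median member lay at 0.13, -0.03, -0.26 and 0.18 on the log2 scale in replicates 1 to 4. Of the 32 tested, 20 were lowest in replicate 3 (62.5%), against 31.6% of all rows tested. The same medians were 0.11, -0.01, -0.25 and 0.11 over all 1794 tested rows without an overlap, and -0.03, 0.00, 0.04 and -0.02 over the 3270 with one. The 14 members with an overlap were at 0.13, 0.05, -0.26 and 0.06, and 11 of them (78.6%) were lowest in replicate 3, against 19.6% of all tested rows with an overlap. Of the 18 tested members without one, 9 were (50%), close to the 53.6% of all such rows. In replicates 1, 3 and 4, the medians of the 14 members with an overlap lay nearer to those of all rows without one. In replicate 2 their median lay nearer to that of all rows with an overlap. These differences were not tested. Bysl stood at 1199, 1203, 1287 and 1193 TMM-normalized CPM, a coefficient of variation of 3.65%, with replicate 3 highest rather than lowest. The part of library composition in these differences was not tested.

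**Figure D4:**
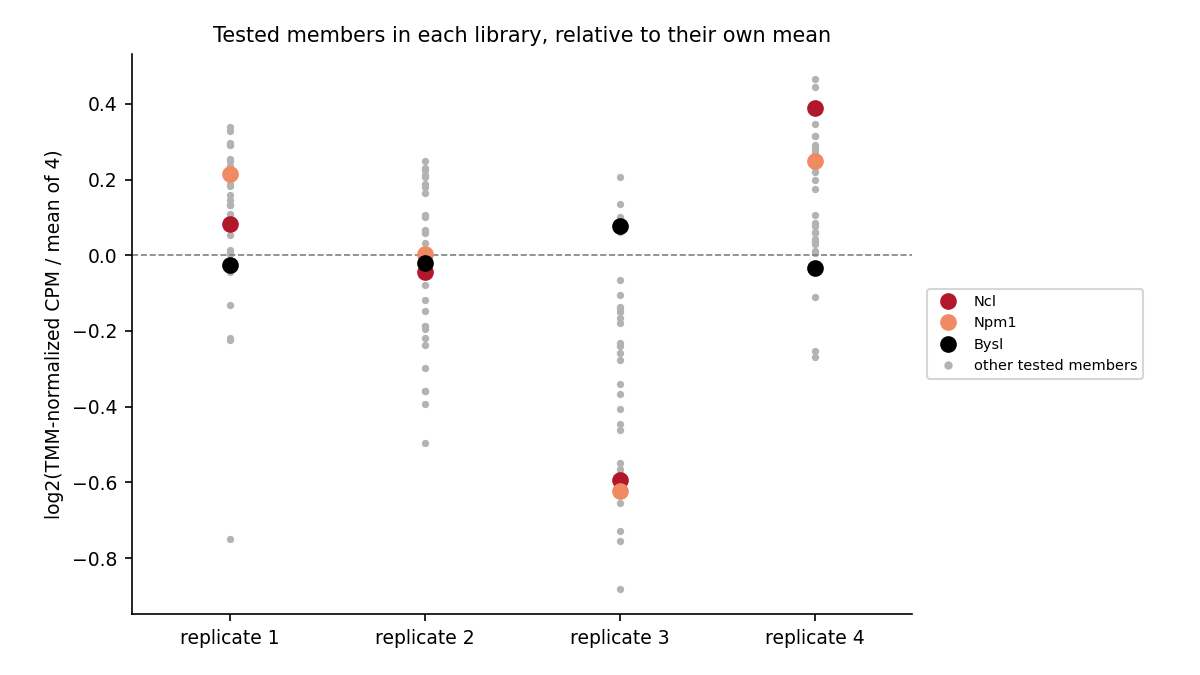
Log2 of TMM-normalized CPM over the row's mean of 4, in each library, for the 32 tested members, with Ncl, Npm1 and Bysl marked. Most members fall below 0 in replicate 3 (median -0.26), among them Ncl and Npm1, while Bysl stays near 0 in all 4.

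Several members are hosts of intronic snoRNAs, which guide the modifications the snoRNPs make. Within the spans of 7 members (Nop58, Ncl, Nop56, Tsr1, Gnl3, Wdr43 and Dkc1) lay 21 snoRNA rows, all on the member's strand. Of these, 19 had 0 counts in all 4 libraries (90.5%), against 94.0% of all 1507 snoRNA rows. Gm22771 (1, 1, 2 and 0) and Snord91a (1, 0, 1 and 0), both within Tsr1, had the rest, under the 3 counts that a value of 0 allows. Of the 21 rows 7 also share exon bases with their host's row on the same strand, where a read fits both rows.

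Some members share sequence with transcripts of other genes. Of all 50-base words in a member's transcripts, the share also found in transcripts of other genes on the same strand was 24.3% for Npm1, 20.4% for Pes1, 19.0% for Fbl, 18.6% for Nop56 and 11.99% for Mrto4. Npm1 shares words with 9 pseudogenes. Genes within a member's own span were not left out, so the share for Nop56 can include snoRNA rows that share its exons. Wdr12 followed at 5.81%. The levels of these genes are thus uncertain, since reads from such stretches can be lost or misplaced, which was not measured. Ncl (1.96%) and Bysl (0%) have few or none on the same strand. On the other strand, where words shared with an overlapping opposite row count as well, the share was 0.292% for Ncl and 8.20% for Bysl. It was highest there for Tsr1 (26.4%), Noc2l (19.2%) and Fbl (18.9%).

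Promoters were searched for the E-box CACGTG, a binding sequence of Myc and related factors. In windows of 250 bases before to 50 after the start (RefSeq, GRCm38.p6), found for 35 members, 7 had it (20%), against 8.91% of 17492 protein-coding genes, a difference that was not tested. Both strands read alike, since the motif is its own reverse complement. The sites are shown 5′ to 3′ on the gene's strand, with the motif in capitals, to show what these genes share in sequence.
Nop2, chr6:125131811-125131840, plus strand: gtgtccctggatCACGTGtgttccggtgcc
Rrn3, chr16:13780472-13780501, plus strand: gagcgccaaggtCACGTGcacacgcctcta
Rrn3, chr16:13780639-13780668, plus strand: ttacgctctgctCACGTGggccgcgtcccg
Pes1, chr11:3963965-3963994, plus strand: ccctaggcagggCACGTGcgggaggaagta
Wdr43, chr17:71616220-71616249, plus strand: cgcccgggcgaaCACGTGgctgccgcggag
Tsr1, chr11:74898092-74898121, plus strand: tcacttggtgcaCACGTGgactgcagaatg
Utp20, chr10:88826765-88826789, minus strand: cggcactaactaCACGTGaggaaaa
Mybbp1a, chr11:72441355-72441376, plus strand: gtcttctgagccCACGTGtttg
In Nop2 and Rrn3 the motif begins 60, 215 and 48 bases before the start, and in the other 5 genes 2 to 40 bases after it. The 7 genes with the motif had a median of 9.12 TPM (2.40 to 21.1) and the 28 without 7.84 TPM (1.13 to 470), so the levels overlapped. A match in letters is not evidence of binding.

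A wider list of 120 other ribosome biogenesis genes, of which 119 matched, stood lower than the members. At 1 TPM or more in all libraries were 35 of 39 members (89.7%) and 92 of the 119 (77.3%), and the median level was 8.70 TPM in the members and 3.77 TPM in the wider list. Both lists were chosen by hand, so this is a description only. With an overlap the medians were 18.6 TPM over 14 members and 6.98 TPM over 40 genes of the wider list, and without one 4.86 TPM over 25 and 3.26 TPM over 79. The 5 highest genes of the wider list all have an overlap. They were Exosc9, of the RNA exosome, at 553 ± 30.5 TPM, the small-subunit genes Krr1 at 161 ± 8.26 and Emg1 at 122 ± 3.22, Rrp8 at 90.0 ± 6.09 and Pih1d1, of snoRNP assembly, at 71.1 ± 8.86 (SD, n = 4). Exosc9 shares 510 bp with the cyclin gene Ccna2 and, like Bysl beside Ccnd3, was the row with the high count, at 3640, 3832, 4001 and 2914. Of 64 genes of the wider list tested for variation between libraries, edgeR called 0 (adjusted p under 0.05), with 0 also at an unadjusted p under 0.05. Of all 5064 rows tested, edgeR called 23 (0.454%), and 260 had an unadjusted p under 0.05. The 0 called thus lay near the share over all rows.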

How the data were processed

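Per the file headers, the deposited counts are raw read pairs assigned to genes by featureCounts 1.4.6-p4 (strand setting 1, both ends mapped, exons summed by gene) with GENCODE vM13 on mm10. The aligner's version was not given in these sources. The molecule label says total RNA, but the protocol it links to is one for polyadenylated RNA. Deposited exon length and count gave TPM.

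The members and lists were chosen with earlier results of these data known. Given per library are members with an overlap and their opposite rows, the 4 highest and 4 lowest members without one, the 2 highest of each role and any called; of the wider list and the snoRNA rows, the 5 highest are named. Variation between libraries was fitted over all rows in edgeR 4.0.16 (limma 3.58.1, R 4.3.3) with an intercept alone, TMM, filterByExpr and a trended dispersion. The fit was also run on simulated counts with a constant dispersion. Those lacked the composition differences of these libraries, so the run cannot show how the fit handles them. DESeq2 1.42.0 served as an alternative, for scaling and for its flag on outlying dispersions. Names came from GENCODE vM21, in which 224 of 50600 rows had no match. Wilson intervals (95%) and the limit of 3 counts that a value of 0 allows (1.32 to 1.68 CPM) describe counting error alone, because reads lacking molecular tags can repeat a molecule. Other work used SciPy 1.17.1, Matplotlib 3.10.9, pandas 2.3.3 and numpy 2.4.6 under Python 3.11.15. Alternatives were other units, overlap lengths, filters, dispersions and leaving out each replicate.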

Additional observations from a re-analysis of the deposited data

Results flagged for a closer look

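In 3 of 57 sets of 4 values (TPM of the members and of their opposite rows, and the summary values), 1 library lay far from the other 3 by Dixon's test, about the 1 in 20 that chance gives. Wdr43 stood at 12.2 TPM in replicate 3, against 23.2 to 24.9 in the others. Heatr1 stood at 1.77 TPM in replicate 3, against 3.02 to 3.13. Mpp1, the row opposite Dkc1, stood at 22.1 TPM in replicate 4, against 30.7 to 31.2.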

How the results depend on the processing

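The number of members detected was 35 of 39, and 31 at 1 FPKM or more. It was 39 at 4 counts or more and also without replicate 3, and 35 without replicate 1, 2 or 4. The median member level was 3.17 on the log2(TPM + 1) scale, but 2.65 as FPKM and 4.23 as TMM-normalized CPM, which are other units. The difference of medians (1.60) was 1.25 with TMM-normalized CPM and 1.11 with overlaps of at least 50 bp, and kept its sign. The share of member counts in rows with an overlap (47.9%) was 41.7% at 50 bp and 37.6% at the longest minimum run, since fewer rows then count. At 50 bp 8 pairs remain, and the opposite row was higher throughout in 5. Of 14 pair ratios 11 kept their direction in every setting. Per exon base Nhp2 turned to -0.25 and Bop1 to -0.80, and with 1 replicate left out Wdr12 ranged between -0.49 and 0.086, turned by leaving out replicate 1. Variable rows numbered 23, but 15 with no filter, 3 among rows without an overlap, and 7 to 20 with 1 replicate left out. They numbered 32 with a common dispersion and 32 by DESeq2 dispersion outliers. Members called numbered 2, but 0 with no filter, with a common dispersion, by DESeq2 dispersion outliers and among rows without an overlap, and 0 to 2 with 1 replicate left out. The cause was not tested. Rows near 3 counts limit Nob1, Nop10, Nip7 and Wdr75. No paired analysis was possible because the libraries form 1 group, with no second group to block by replicate; rows were paired within libraries only.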
